A study of Bos taurus with 29 samples.

Results

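The genes described here encode the platelet-derived growth factor (PDGF) ligands PDGFA, PDGFB, PDGFC and PDGFD, the PDGF receptors PDGFRA and PDGFRB, the angiopoietins ANGPT1 and ANGPT2, and the receptors TEK and TIE1. They were chosen by name from a table of read counts for 19112 genes of the bovine corpus luteum. Of the 10 named genes, 9 were analysed and tested among 18939 genes in all, and ANGPT2 was not analysed here.

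The corpus luteum is the temporary gland that forms from the ovulated follicle, secretes progesterone and depends on a dense capillary bed. PDGF ligands are dimers that signal through PDGFRA and PDGFRB, receptor tyrosine kinases found mainly on fibroblasts, pericytes and related mesenchymal cells, and PDGFB from endothelial cells is known for drawing pericytes to new capillaries. ANGPT1 from cells around the vessel activates TEK on endothelial cells and steadies the vessel wall, ANGPT2 acts on the same receptor and can oppose ANGPT1, and TIE1 is a related endothelial receptor that modulates TEK.

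The study looked at crosstalk between embryo, endometrium and corpus luteum. Bovine endometrial explants were kept alone (EE), with 1 embryo of day 7 that developed in vivo (EE-AI), or with 1 of day 7 that was produced in vitro (EE-IVF). Corpus luteum tissue was grouped as CM_EE_IVF, CM_EE_AI, CM_EE and NC, of which the first 3 names end like those of the explant groups, and each group has 3 libraries that carry an R number (R2, R4 or R5). Neither CM nor the DMEN in the titles of the NC samples is spelled out, and NC was taken as the control. All 4 groups have slaughterhouse as their source. The labels used here name no breed, genotype, age, dose or culture time for the corpus luteum, nor the animal or culture that each R number stands for. The p-values therefore measure only the spread between these libraries, which may be technical. R4 and R5 come with 2 sample titles for each column of the table, and the title prefix of R2 differs from theirs.

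The 12 libraries held 16536797 to 25747637 counts, of which 44.4% to 64.0% came from mitochondrially encoded genes and 13.8% to 20.9% from ribosomal RNA genes. The luteal markers HSD3B1 (mean 913 CPM), CYP11A1 (405 CPM) and STAR (294 CPM), which serve steroid synthesis, were present in every library, where CPM is a count scaled to a common library total with TMM factors. Markers of the vessel wall were present too, such as FLT1 (961 CPM) of endothelial cells and ACTA2 (63.8 CPM) of smooth muscle. Summed levels were low for T cell markers (8 genes, 6.88 to 14.3 CPM) and macrophage markers (9 genes, 23.1 to 50.6 CPM). In bulk tissue, fewer cells of a type and less RNA per cell cannot be told apart.

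None of the 9 genes differed between groups past the threshold, an adjusted p under 0.05 in edgeR's quasi-likelihood F test with Benjamini-Hochberg adjustment over all genes tested. The background was the same: 0% of the 18939 genes were called in each of the 6 comparisons and in the test over all 4 groups. At an unadjusted p under 0.05, edgeR gave 281 genes for CM_EE_IVF, 213 for CM_EE_AI and 142 for CM_EE, each against NC, 285 for CM_EE_IVF and 242 for CM_EE_AI against CM_EE, 127 for CM_EE_IVF against CM_EE_AI and 172 over the 4 groups. The number at 5% of the genes would be 947. DESeq2 called 0 genes in the 6 comparisons and 1 over the 4 groups, MYO15B (adjusted p = 0.00175), which was named after its values were seen and is no PDGF or angiopoietin gene. The clearest separation among the 9 genes was that of PDGFRA, whose levels were highest in CM_EE_IVF.

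**Figure D1:**
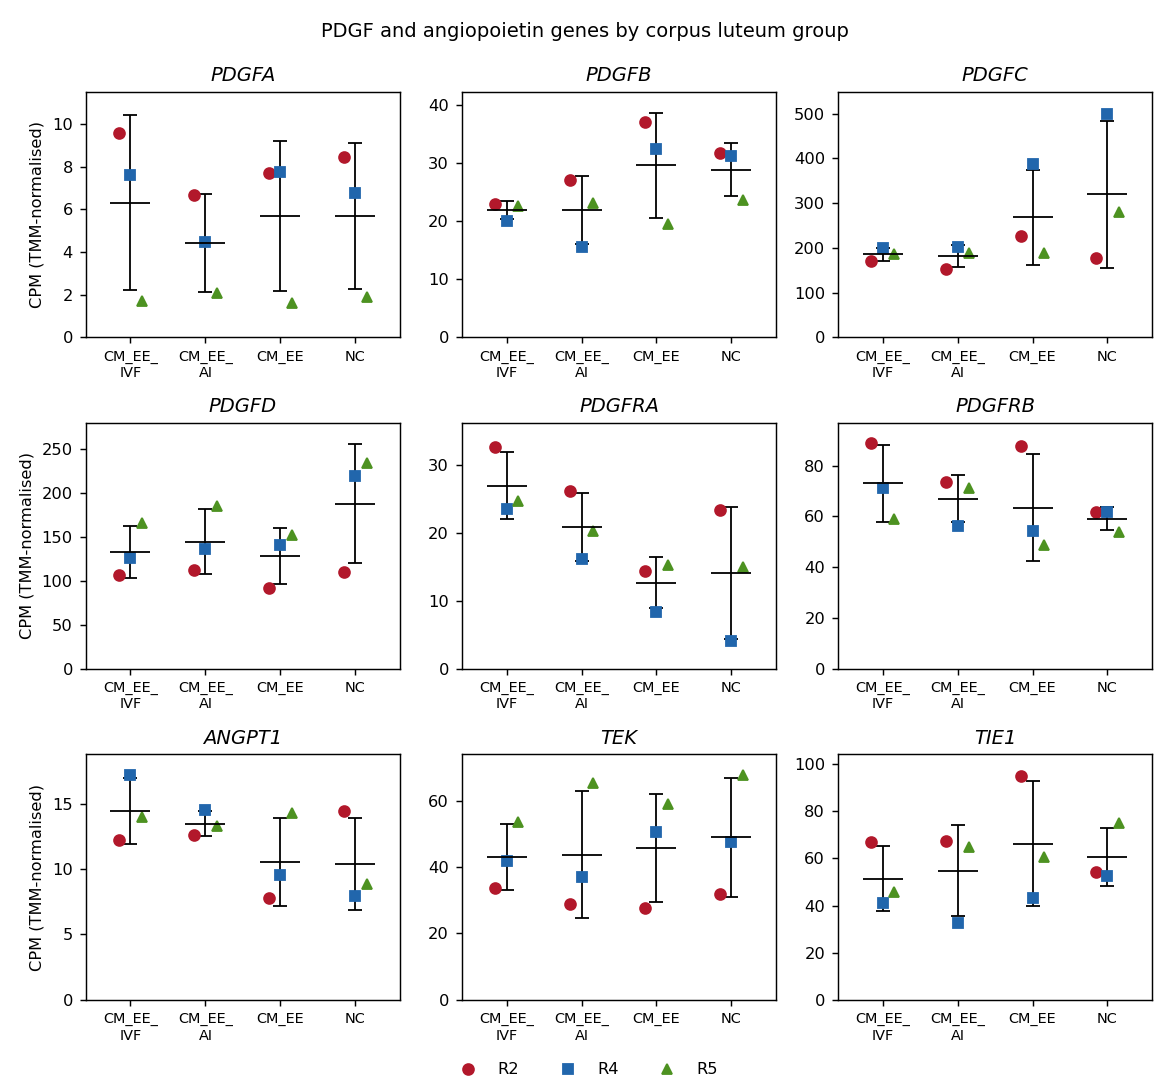
Level of the 9 genes in CPM (vertical axis, from 0) in the 4 corpus luteum groups, with 1 point per library, its shape and colour giving the R number, and bars for the mean ± SD of 3 libraries. PDGFRA lies at 23.5 CPM or above in all 3 CM_EE_IVF libraries and at 15.3 CPM or below in all 3 CM_EE libraries, and the R5 libraries are lowest for PDGFA in every group.

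Among the ligands, PDGFA encodes the A chain, which binds PDGFRA. It had 9.60, 7.63 and 1.71 CPM in the R2, R4 and R5 libraries of CM_EE_IVF, 6.68, 4.47 and 2.10 CPM in those of CM_EE_AI, 7.72, 7.75 and 1.63 CPM in those of CM_EE, and 8.48, 6.76 and 1.88 CPM in those of NC. The groups overlapped in every comparison, and the R5 library was the lowest of its group each time. The log2 fold changes against NC were 0.15 in CM_EE_IVF, -0.37 in CM_EE_AI and -0.01 in CM_EE, with 95% intervals about 3.2 wide, the widest of the 9 genes.

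PDGFB encodes the B chain, which binds both receptors. It had 23.0, 20.1 and 22.7 CPM in CM_EE_IVF (R2, R4 and R5), 27.1, 15.6 and 23.1 CPM in CM_EE_AI, 37.0, 32.4 and 19.6 CPM in CM_EE, and 31.7, 31.2 and 23.6 CPM in NC. All CM_EE_IVF libraries lay below all NC libraries, though the gap between the nearest pair was small (23.0 against 23.6 CPM). The log2 fold change of CM_EE_IVF against NC was -0.40 (95% interval -1.04 to 0.25, adjusted p = 1.00 in edgeR).

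PDGFC is a ligand of PDGFRA that is secreted with a CUB domain and becomes active once proteases such as tissue plasminogen activator remove it. It had 171, 200.045 and 186 CPM in CM_EE_IVF, 153, 203 and 189 CPM in CM_EE_AI, 227, 388 and 189 CPM in CM_EE, and 178, 500.2 and 280.3 CPM in NC (R2, R4 and R5 each time). The 6 libraries of CM_EE_IVF and CM_EE_AI stayed within 153 to 203 CPM, whereas CM_EE and NC reached far higher in R4. The NC library R2 lay among the lowest, so the groups overlapped.

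Against NC, the log2 fold change of PDGFC was -0.78 in CM_EE_IVF (-1.61 to 0.05), -0.81 in CM_EE_AI (-1.65 to 0.02) and -0.25 in CM_EE (-1.08 to 0.57). The adjusted p was 1.00 in edgeR for each of them. Without the NC library R4, the values were -0.30 in CM_EE_IVF and -0.33 in CM_EE_AI, and the value in CM_EE changed sign to 0.23.

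PDGFD also carries a CUB domain and signals mainly through PDGFRB. It had 107, 126 and 166 CPM in CM_EE_IVF, 113, 136 and 186 CPM in CM_EE_AI, 91.6, 141 and 152 CPM in CM_EE, and 110.4, 220 and 234 CPM in NC (R2, R4 and R5). The R2 library was the lowest and the R5 library the highest of every group, and NC overlapped with each other group through its R2 library. The log2 fold changes against NC were -0.50 in CM_EE_IVF (-1.26 to 0.26), -0.38 in CM_EE_AI (-1.14 to 0.38) and -0.55 in CM_EE (-1.31 to 0.21).

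Among the receptors, PDGFRA marks fibroblasts and their progenitors in many tissues. It had 32.7, 23.5 and 24.7 CPM in CM_EE_IVF, 26.2, 16.1 and 20.3 CPM in CM_EE_AI, 14.4, 8.31 and 15.3 CPM in CM_EE, and 23.4, 4.00 and 15.0 CPM in NC (R2, R4 and R5). CM_EE_IVF lay above CM_EE and NC with no overlap, against NC only barely (23.5 against 23.4 CPM), and CM_EE_AI lay above CM_EE with no overlap. The means were 27.0 ± 4.99 CPM in CM_EE_IVF, 20.9 ± 5.03 CPM in CM_EE_AI, 12.7 ± 3.83 CPM in CM_EE and 14.1 ± 9.74 CPM in NC (SD, n = 3 each).

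The log2 fold change of PDGFRA was 1.09 in CM_EE_IVF against CM_EE (0.02 to 2.15) and 0.72 in CM_EE_AI against CM_EE (-0.34 to 1.78). Against NC it was 0.93 in CM_EE_IVF (-0.13 to 1.99), 0.56 in CM_EE_AI (-0.49 to 1.62) and -0.15 in CM_EE (-1.21 to 0.90). The adjusted p was 1.00 in edgeR for all of these. Within R2, within R4 and within R5 alike, PDGFRA was higher in CM_EE_IVF and in CM_EE_AI than in CM_EE and than in NC. The NC library R4, at 4.00 CPM, weighed on the NC values: without it the log2 fold change against NC was 0.49 in CM_EE_IVF and 0.12 in CM_EE_AI, and without the NC library R2 it was 1.55 in CM_EE_IVF and 1.18 in CM_EE_AI. Without the CM_EE_AI library R2, CM_EE_AI gave 0.25 against NC and 0.45 against CM_EE. For CM_EE against NC the value was -0.59 without the NC library R4 and changed sign to 0.46 without the NC library R2.

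Fibroblast and luteal steroidogenic markers, 0 of which passed the test, mostly had higher levels in the groups where PDGFRA was higher. The share with higher levels did not stand clear of that of all genes in every comparison. Endothelial markers went the other way, with 13 of 14 lower in CM_EE_IVF and 14 of 14 lower in CM_EE_AI, each against CM_EE. Of all genes, 47.6% and 56.1% had higher levels in these 2 comparisons. The summed level of 10 fibroblast markers was 437 to 1141 CPM in CM_EE_IVF, 435 to 872 CPM in CM_EE_AI, 363 to 756 CPM in CM_EE and 292 to 829 CPM in NC. In CM_EE_IVF against CM_EE, 9 of the 10 markers had higher levels with a median log2 fold change of 0.72, beside -0.02 over all genes. In CM_EE_AI against CM_EE, 6 of the 10 had higher levels (median 0.32, beside 0.06), a share near the 56.1% of all genes. COL1A1, a fibrillar collagen chain, averaged 266 ± 132 CPM in CM_EE_IVF and 141 ± 40.0 CPM in CM_EE (SD, n = 3 each). The summed level of 10 luteal steroidogenic markers was 1865 to 3388 CPM in CM_EE_IVF, 1535 to 5877 CPM in CM_EE_AI, 1387 to 2841 CPM in CM_EE and 1506 to 1819 CPM in NC. All 10 had higher levels in CM_EE_IVF against NC (median log2 fold change 0.62, beside -0.04 over all genes), in CM_EE_AI against NC (0.88, beside 0.03) and in CM_EE_AI against CM_EE (0.61, beside 0.06), and 9 of 10 in CM_EE_IVF against CM_EE (0.35, beside -0.02). Of all genes, 45.9% had higher levels in CM_EE_IVF and 53.1% in CM_EE_AI, each against NC. In CM_EE_IVF against CM_EE_AI, where PDGFRA was higher, 2 of the 10 luteal markers had higher and 8 lower levels (median -0.26, beside -0.07). Of all genes, 37.8% had higher levels in that comparison. The part of all these markers in the PDGFRA values was not tested.

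PDGFRB marks pericytes and smooth muscle and is the main receptor for the B and D chains. It had 89.0, 71.2 and 58.9 CPM in CM_EE_IVF, 73.4, 56.3 and 71.3 CPM in CM_EE_AI, 87.7, 54.1 and 48.6 CPM in CM_EE, and 61.6, 61.7 and 53.9 CPM in NC (R2, R4 and R5). The groups overlapped in every comparison. Its levels varied least among the 9 genes, by 1.83-fold between the lowest and the highest library, while those of PDGFRA varied 8.17-fold. The log2 fold changes of PDGFRB against NC were 0.31 in CM_EE_IVF (-0.31 to 0.92), 0.18 in CM_EE_AI (-0.43 to 0.79) and 0.10 in CM_EE (-0.51 to 0.72).

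The log2 ratio of PDGFRB to PDGFRA counts within a library does not depend on the scaling of the libraries. It averaged 1.43 ± 0.17 in CM_EE_IVF, 1.70 ± 0.18 in CM_EE_AI, 2.32 ± 0.57 in CM_EE and 2.40 ± 1.36 in NC (SD, n = 3 each). All CM_EE_IVF libraries (1.25 to 1.60) lay below all CM_EE libraries (1.66 to 2.70), and NC spanned the others (1.40 to 3.95). In an exact two-sided permutation test, CM_EE_IVF against CM_EE gave p = 0.1, the smallest that 3 against 3 libraries allow, and 0.45 after adjustment over the 6 comparisons, so the design could not reach the threshold.

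ANGPT1, the activating ligand of TEK, had 12.2, 17.2 and 14.0 CPM in CM_EE_IVF, 12.6, 14.5 and 13.3 CPM in CM_EE_AI, 7.82, 9.54 and 14.3 CPM in CM_EE, and 14.4, 7.96 and 8.84 CPM in NC (R2, R4 and R5). CM_EE_IVF and CM_EE_AI held no library below 12.2 CPM, while CM_EE and NC each held 2 libraries at 9.54 CPM or below and 1 at 14.3 CPM or above. The log2 fold changes against NC were 0.47 in CM_EE_IVF (-0.20 to 1.15), 0.37 in CM_EE_AI (-0.30 to 1.05) and 0.02 in CM_EE (-0.65 to 0.69). Single NC libraries moved these values: without R2 they were 0.80 in CM_EE_IVF, 0.70 in CM_EE_AI and 0.35 in CM_EE, without R4 0.31, 0.21 and -0.14, and without R5 0.28, 0.18 and -0.17.

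TEK, the angiopoietin receptor, had 33.6, 41.9 and 53.6 CPM in CM_EE_IVF, 29.0, 36.9 and 65.4 CPM in CM_EE_AI, 27.5, 50.6 and 58.9 CPM in CM_EE, and 31.8, 47.6 and 67.7 CPM in NC (R2, R4 and R5). In every group R2 was lowest and R5 highest, and the groups overlapped throughout. The log2 fold changes against NC were -0.19 in CM_EE_IVF (-1.04 to 0.67), -0.16 in CM_EE_AI (-1.02 to 0.69) and -0.10 in CM_EE (-0.96 to 0.75).

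TIE1, the partner receptor of TEK, had 67.1, 41.3 and 45.6 CPM in CM_EE_IVF, 67.5, 32.4 and 64.6 CPM in CM_EE_AI, 95.1, 43.2 and 60.5 CPM in CM_EE, and 54.2, 52.7 and 74.9 CPM in NC (R2, R4 and R5). R4 was the lowest library of every group, and the groups overlapped in each comparison. The log2 fold changes against NC were -0.24 in CM_EE_IVF (-1.03 to 0.55), -0.14 in CM_EE_AI (-0.94 to 0.65) and 0.13 in CM_EE (-0.66 to 0.92).

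**Figure D2:**
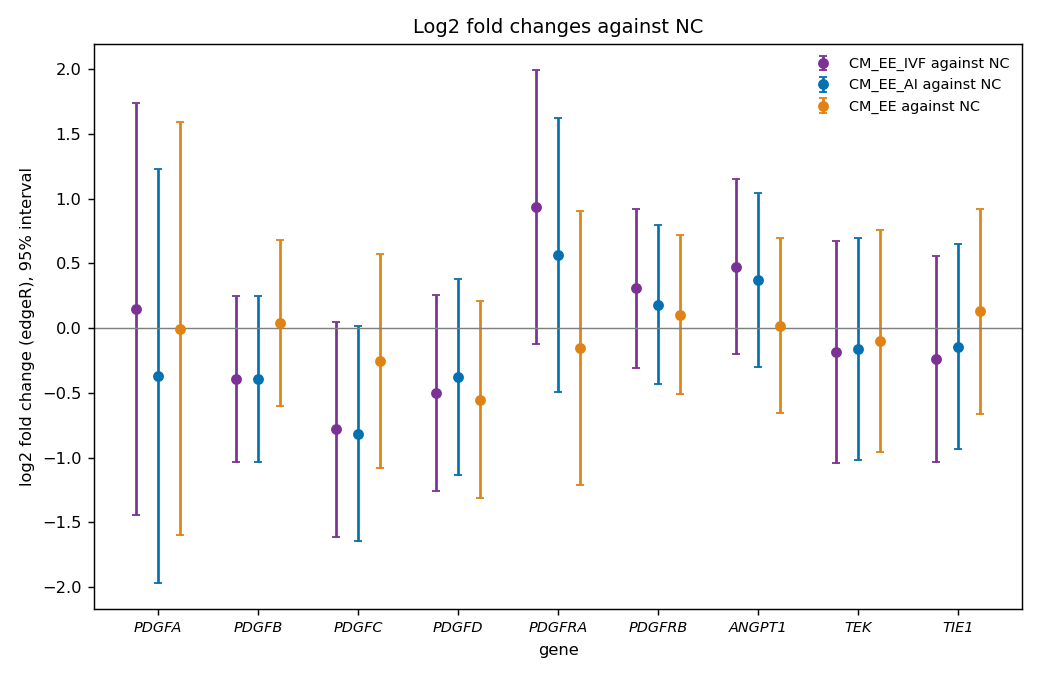
Log2 fold changes of the 9 genes against NC from the edgeR fit (vertical axis) with their 95% intervals, for CM_EE_IVF, CM_EE_AI and CM_EE. In this fit without the R number, every interval includes 0. Those of PDGFRA in CM_EE_IVF (-0.13 to 1.99) and of PDGFC in CM_EE_IVF (-1.61 to 0.05) and CM_EE_AI (-1.65 to 0.02) reach 0 only near one end.

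Counted over the 9 genes, separation between groups was as follows. Against NC, the libraries did not overlap for 2 genes in CM_EE_IVF (PDGFRA above, PDGFB below), beside 5.73% of all genes tested, for 0 genes in CM_EE_AI (3.93% of all genes) and for 0 genes in CM_EE (2.69%). Against CM_EE, PDGFRA alone among the 9 did not overlap in CM_EE_IVF (5.6% of all genes) and in CM_EE_AI (3.34%). CM_EE_IVF against CM_EE_AI gave 0 genes (2.32%). These comparisons share libraries, so the PDGFRA values in them are not separate evidence.

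Some genes differed in 1 direction within all 3 R numbers. Against NC these were 5 of the 9 genes in CM_EE_IVF (PDGFRA and PDGFRB higher; PDGFB, PDGFC and PDGFD lower), beside 24.7% of all genes. In CM_EE_AI they were 4 (PDGFRA higher; PDGFB, PDGFC and TEK lower; 25.4% of all genes), and in CM_EE 1 (PDGFD lower; 15.9%). Against CM_EE they were 4 in CM_EE_IVF (PDGFRA and PDGFRB higher, PDGFC and TIE1 lower; 31.2%) and 1 in CM_EE_AI (PDGFRA higher; 21.9%). For CM_EE_IVF against CM_EE_AI they were 2 (PDGFRA higher, PDGFD lower; 15.5%). Several of these counts rest on log2 differences near 0 within 1 R number. In CM_EE_IVF against NC they were -0.056 for PDGFC and -0.050 for PDGFD in R2, and -0.058 for PDGFB in R5. In CM_EE_AI against NC they were -0.027 for PDGFB and -0.050 for TEK in R5. In CM_EE_IVF against CM_EE they were 0.020 for PDGFRB in R2 and -0.018 for PDGFC in R5. Over the 9 genes the median log2 fold change against NC was -0.19 in CM_EE_IVF, -0.16 in CM_EE_AI and -0.01 in CM_EE, beside -0.04, 0.03 and -0.03 over all genes.

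PDGFC and PDGFRA, a ligand and its receptor, ran opposite to each other over the 12 libraries. The libraries with the highest PDGFC, NC R4 (500.2 CPM) and CM_EE R4 (388 CPM), had the lowest PDGFRA, 4.00 and 8.31 CPM. Their log2 CPM values had a Pearson r of -0.94 (Spearman rho -0.90), the most negative for either gene among 9509 genes with a mean of at least 5 CPM. The r was -0.91 after the mean of each R number was subtracted, and -0.73 over the 10 libraries left without NC R4 and CM_EE R4. It is the strongest of 36 pairs among the 9 genes, was singled out after the values were seen and is given as a description only, since libraries share R numbers and scaling.

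**Figure D3:**
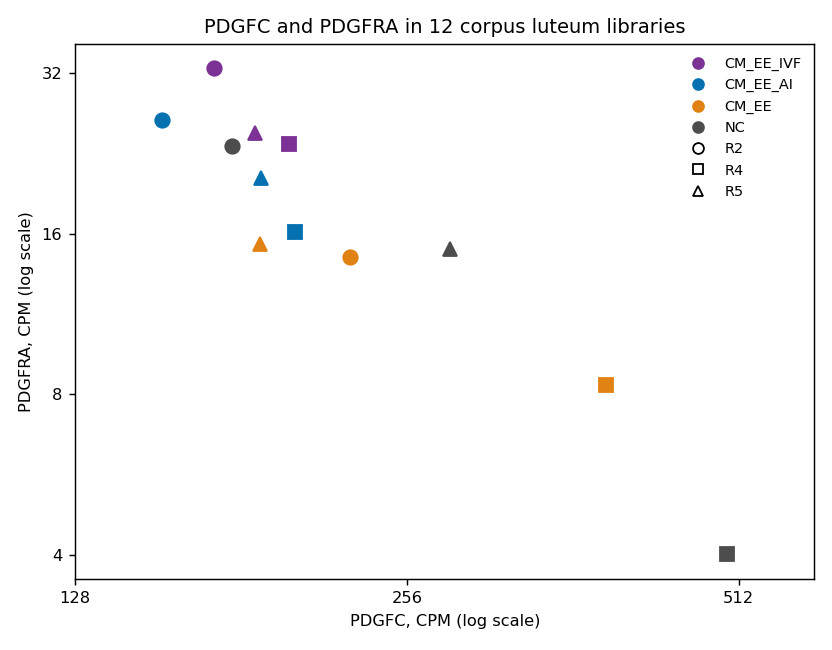
PDGFRA (vertical axis) against PDGFC (horizontal axis), both in CPM on log scales, with 1 point per library, colour for the group and shape for the R number. NC R4 sits at 500.2 CPM of PDGFC and 4.00 CPM of PDGFRA, and the CM_EE_IVF libraries sit at 171 to 200.045 CPM and 23.5 to 32.7 CPM.

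Among the other pairs, PDGFC and ANGPT1 had an r of -0.71 over the 12 libraries and -0.92 after the R means were subtracted, and PDGFRA and ANGPT1 had 0.67 and 0.85. TEK and PDGFD had 0.87 and 0.55. By the rule of the highest r among genes at 5 CPM or more, the genes most like PDGFRA were DAXX (0.92) and COL6A2 (0.91), a collagen VI chain, those most like PDGFC were STARD13 (0.96) and PHLPP1 (0.95), and those most like PDGFRB were SBF2 (0.91) and ZFPM2 (0.91). PDGFB was most like LANCL3 and LOC515333 (0.94 each), PDGFD most like DNM3 and ZDHHC13 (0.95 each), ANGPT1 most like POP4 (0.87) and ADAMDEC1 (0.86), and TIE1 most like PDE9A (0.93) and RIPK1 (0.92). For PDGFA the likeness rested mostly on the R numbers: it had 0.97 with LOC506989 and 0.95 with NCALD but 0.47 and 0.36 after subtraction. TEK had 0.97 each with HLF and LRBA, and 0.76 and 0.74 remained after subtraction.

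The levels of 6 of the 9 genes differed between the R numbers. The test asked, with group in the model, whether R5, R4 and R2 differ, and edgeR called 5063 of 18939 genes, or 26.7% of all genes (3374 genes without the CM_EE_AI library R5). The genes called were PDGFA (adjusted p = 0.000238), TEK (0.00163), PDGFD (0.00802), TIE1 (0.0408), PDGFRA (0.0463) and PDGFC (0.0474). PDGFRB (0.137), PDGFB (0.313) and ANGPT1 (0.947) did not pass. Between R5 and R2 the median log2 difference of all genes was 0.11 under this scaling.

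PDGFA averaged 1.83 ± 0.21 CPM in R5, 6.65 ± 1.52 CPM in R4 and 8.12 ± 1.23 CPM in R2 (SD, n = 4 each). R5 did not overlap with the others, and its log2 fold change was -1.83 against R4 (-2.38 to -1.29) and -2.13 against R2 (-2.67 to -1.58). Of the spread of log2 CPM of PDGFA over the 12 libraries, 94.4% lay between R numbers and 1.62% between groups. The medians over all genes were 40.1% and 13.6%, on log2 CPM with a prior count of 2 that the PDGFA values do not use.

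TEK averaged 61.4 ± 6.37 CPM in R5, 44.3 ± 6.06 CPM in R4 and 30.5 ± 2.75 CPM in R2 (SD, n = 4 each). No 2 of these sets of libraries overlapped, and the log2 fold change of R5 against R2 was 1.01 (0.67 to 1.34). The R numbers held 89.4% of the spread of TEK.

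PDGFD averaged 185 ± 35.9 CPM in R5, 156 ± 43.0 CPM in R4 and 105 ± 9.48 CPM in R2, so that R2 lay below the other R numbers without overlap. Its log2 fold change was 0.79 for R5 against R2 (0.44 to 1.13). TIE1 averaged 61.4 ± 12.1 CPM in R5, 42.4 ± 8.30 CPM in R4 and 70.9 ± 17.2 CPM in R2, and its R4 libraries were lower by a log2 fold change of -0.75 against R2 (-1.19 to -0.30). PDGFRA averaged 18.8 ± 4.62 CPM in R5, 13.0 ± 8.64 CPM in R4 and 24.2 ± 7.57 CPM in R2, and PDGFC averaged 211 ± 46.3, 323 ± 147 and 182 ± 31.7 CPM in the same order (SD, n = 4 each).

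The calls of PDGFA and TEK held under each of 16 settings, whereas those of the other 4 genes depended on single libraries. PDGFC was called in 5 of the 16 settings. It lost its call without any one R2 or R5 library, without the R4 libraries of CM_EE (adjusted p = 0.195 in edgeR) or NC (0.161), and under RLE scaling (0.0707). PDGFRA was called in 8 settings and lost its call without the R2, R4 or R5 library of CM_EE_AI, the R2 or R5 library of CM_EE_IVF, the R4 library of CM_EE (0.116) or the R2 or R4 library of NC. TIE1 was called in 10 settings and lost its call without the R2 or R4 library of CM_EE_IVF, the R4 or R5 library of CM_EE_AI, or the R2 or R4 library of CM_EE (0.154). PDGFD was called in 14 settings and lost its call without the R2 library of CM_EE (0.0688) or NC (0.0725). PDGFRB gained a call without the R2 library of NC (0.0291) and in DESeq2 (0.0352).

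**Figure D4:**
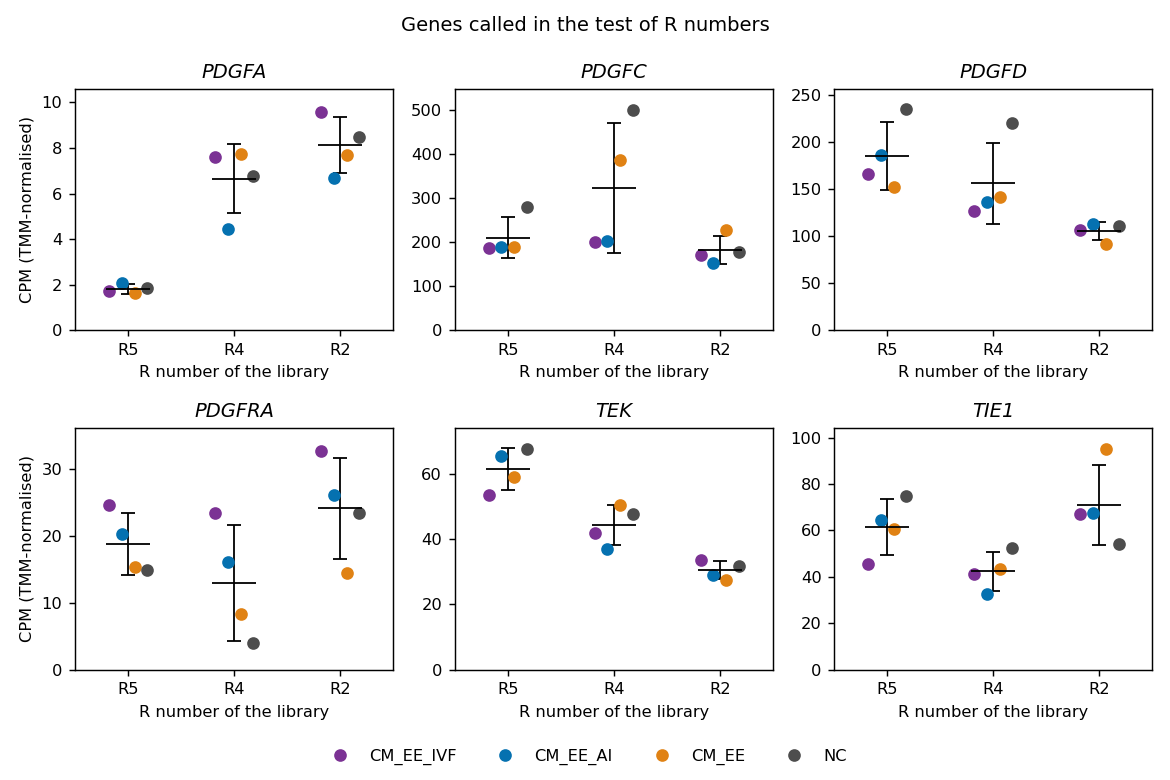
Level in CPM (vertical axis, from 0) of the 6 genes called in the test of R numbers, with libraries arranged by R number, 1 point per library coloured by group, and bars for the mean ± SD of 4 libraries. PDGFA is at 1.63 to 2.10 CPM in the R5 libraries of every group, and TEK stands higher in R5 than in R4 and in R4 than in R2 without overlap.

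TEK and TIE1, both receptors of endothelial cells, did not follow each other across the R numbers. The log2 ratio of TEK to TIE1 counts was -0.15 to 0.23 in R5, -0.15 to 0.23 in R4 and -1.79 to -0.77 in R2. This ratio was chosen after the values were seen and was not tested. The summed level of 14 endothelial markers was 1291 to 1819 CPM in R5, 1263 to 1919 CPM in R4 and 3361 to 4696 CPM in R2, so that TEK was lowest where the endothelial sum was highest. In R2 the sum averaged 3804 CPM, and FLT1 alone, at 2053 CPM, was its largest part. Of these 14 markers, 10 had their highest mean in R2 and 3 in R5, beside 31.4% and 36.1% of all genes, and 8 were called in the test of R numbers, beside 26.7% of all genes. Among them FLT1, a VEGF receptor, averaged 368 CPM in R5, 461 CPM in R4 and 2053 CPM in R2 (adjusted p = 6.03e-06 in edgeR), and CLDN5, a tight junction protein, 4.53, 4.07 and 41.6 CPM in the same order (4.83e-06).

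The other marker lists differed in how many of their genes were called in the test of R numbers, beside 26.7% of all genes, and their part in the PDGF and angiopoietin values was not tested. The summed level of 13 pericyte and smooth muscle markers was 244 to 320 CPM in R5, 426 to 698 CPM in R4 and 439 to 656 CPM in R2, with 10 of the 13 called. Fibroblast markers summed to 363 to 437 CPM in R5, 292 to 1010 CPM in R4 and 756 to 1141 CPM in R2, with 6 of 10 called. Luteal steroidogenic markers summed to 1387 to 2097 CPM in R5, 1618 to 5877 CPM in R4 and 1411 to 2526 CPM in R2, with 9 of 10 called. The highest mean lay in R4 for 7 of these 10 luteal markers, in R5 for 2 and in R2 for 1. The shares of all genes were 32.4%, 36.1% and 31.4% in that order. OXT had the lowest p among the luteal markers (adjusted p = 0.000138 in edgeR). It averaged 7.12 CPM in R5, 37.5 CPM in R4 and 129 CPM in R2. LHCGR, the receptor of luteinizing hormone, had the reverse order, with means of 226, 125 and 69.0 CPM in R5, R4 and R2 (0.000661). For macrophage markers (1 of 9 called, CSF1R, or 11.1%) and T cell markers (1 of 8, CCL5, or 12.5%) the share was below that of all genes. Platelet and red cell markers had 2 of 4 called. HBA, a haemoglobin chain, averaged 0.968 CPM in R5, 1.12 CPM in R4 and 21.1 CPM in R2 (adjusted p = 6.03e-06 in edgeR). ITGA2B, the other one called, went the other way, at 9.68, 4.72 and 2.90 CPM in the same order (0.00224). HBB, another haemoglobin chain, was also lowest in R2, at 1.01, 1.33 and 0.360 CPM, and did not pass (0.151). The mitochondrially encoded share was 54.8% to 64.0% in R5, 44.4% to 48.9% in R4 and 49.5% to 55.9% in R2.

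**Figure D5:**
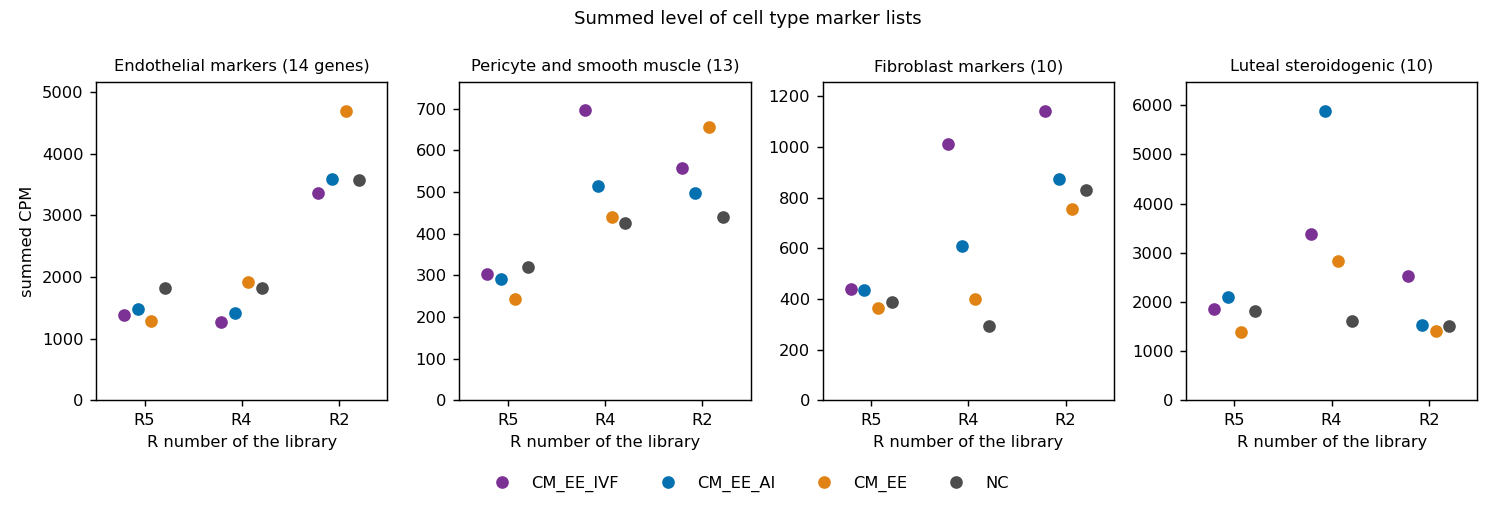
Summed CPM (vertical axes, from 0) of 4 lists of cell type markers, with libraries arranged by R number and 1 point per library coloured by group. The endothelial sum is 3361 to 4696 CPM in the R2 libraries and 1919 CPM or lower in all others. The fibroblast sum is highest in CM_EE_IVF within each R number, in R5 only barely (437 CPM against 435 CPM in CM_EE_AI).

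Of the 26 other genes of PDGF signalling (among them activating proteases, adaptors, kinases and phosphatases), 0 passed the test in any of the 6 comparisons between groups. In CM_EE_IVF against NC, 8 of them had higher and 18 lower values, with a median log2 fold change of -0.11 beside -0.04 over all genes. Of all genes, 45.9% had higher values there. SPHK1, a sphingosine kinase, averaged 2.03 ± 0.80 CPM in CM_EE_IVF, 1.86 ± 0.58 CPM in CM_EE_AI, 1.93 ± 0.21 CPM in CM_EE and 0.900 ± 0.453 CPM in NC (SD, n = 3 each), with log2 fold changes against NC of 1.17 in CM_EE_IVF (0.08 to 2.27), 1.04 in CM_EE_AI (-0.05 to 2.14) and 1.10 in CM_EE (0.01 to 2.20). Its adjusted p was 1.00 in edgeR in all 3.

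In the test of R numbers, 13 of these 26 genes were called, beside 26.7% of all genes. The lowest p belonged to proteases of the plasminogen system and an adaptor. PLAT, tissue plasminogen activator, which releases active PDGFC, averaged 40.4 CPM in R5, 156 CPM in R4 and 290 CPM in R2 (adjusted p = 1.29e-05 in edgeR). PLAU, urokinase, which can activate PDGFD, averaged 12.8 CPM in R5, 25.7 CPM in R4 and 67.5 CPM in R2 (4.94e-05), while PDGFD itself was lowest in R2. CRKL, an adaptor downstream of the receptors, averaged 9.53 CPM in R5, 15.4 CPM in R4 and 24.7 CPM in R2 (0.000517).

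Of the 17 other genes of angiopoietin signalling tested, 0 passed the test between groups. PTPN11, GRB2, SHC1, PIK3CA and PIK3R1 belong to this list and to that of PDGF signalling, so the lists are not separate. GRB2, called in the test of R numbers (adjusted p = 0.0277 in edgeR), counts in both. In CM_EE_IVF against CM_EE, 4 had higher and 13 lower values, with a median log2 fold change of -0.13 beside -0.02 over all genes. Of all genes, 47.6% had higher values there. NOS3, the endothelial nitric oxide synthase, averaged 21.3 ± 1.90 CPM in CM_EE_IVF, 20.3 ± 4.85 CPM in CM_EE_AI, 31.7 ± 5.35 CPM in CM_EE and 28.2 ± 8.98 CPM in NC (SD, n = 3 each). Its log2 fold change against CM_EE was -0.57 in CM_EE_IVF (-1.20 to 0.06) and -0.64 in CM_EE_AI (-1.27 to -0.01), with an adjusted p of 1.00 in edgeR. ANGPT4, another ligand of TEK, averaged 5.09 ± 2.96 CPM in CM_EE_IVF and 2.64 ± 0.52 CPM in NC, with a log2 fold change of 0.95 (-0.54 to 2.43). In the test of R numbers, 6 of the 17 genes were called, or 35.3% beside 26.7% of all genes, a share near the background. Those with the lowest p included GRB14, an adaptor of receptor tyrosine kinases, at 52.3 CPM in R5, 29.6 CPM in R4 and 16.6 CPM in R2 (adjusted p = 4.41e-05 in edgeR), and FOXO1, a transcription factor restrained by TEK signalling, at 111 CPM in R5, 193 CPM in R4 and 147 CPM in R2 (0.0185).

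Marker lists of the vessel wall differed in direction between groups, with 0 of their genes past the test. In CM_EE_IVF against CM_EE, 13 of 14 endothelial markers had lower values (median log2 fold change -0.39) and 10 of 13 pericyte and smooth muscle markers higher values (median 0.40), beside a median of -0.02 over all genes. In CM_EE_AI against CM_EE, 14 of 14 endothelial markers had lower values (median -0.31, beside 0.06 over all genes). Higher values were held by 47.6% of all genes in CM_EE_IVF and by 56.1% in CM_EE_AI, each against CM_EE. Beside these, the log2 fold change of TIE1 against CM_EE was -0.37 in CM_EE_IVF (-1.16 to 0.42) and -0.27 in CM_EE_AI (-1.07 to 0.52), and that of TEK was -0.08 (-0.94 to 0.77) and -0.06 (-0.92 to 0.79). The part of these markers in the TIE1 and TEK values was not tested.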

How the data were processed

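RNA of bovine corpus luteum was sequenced, and the authors deposited read counts per gene, with 1 column per group and R number (12 columns). No deposited value was an expected count with a fraction: the number that were not whole was 0. Per the submitters' processing notes, DESeq2, featureCounts, STAR, cutadapt and Trim Galore were used; versions, genome build, annotation and the kit of the corpus luteum libraries are not given in the sources. No gene of the table summed to fewer than 36 counts over all libraries. Columns that matched no sample or group numbered 0. Libraries of the same group never held identical values (0 of 12 pairs). The endometrial tables name genes by identifiers that the tables used here do not pair with symbols, and they were not used here.

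Genes were kept with filterByExpr by group (18939 of 19112), libraries were scaled by TMM, and all 12 libraries entered 1 edgeR quasi-likelihood model of group with an F test, Benjamini-Hochberg adjustment over all genes and a threshold of 0.05. The test of R numbers added the R number to that model. CPM use TMM-scaled library sizes, and intervals are 95% intervals of the edgeR fit. Log2 CPM use a prior count of 2, except that the within-R differences and the spread of the 9 genes use none. Likeness between genes is Pearson's r of log2 CPM over the 12 libraries. Depth limits low genes most: the 9 genes had 36 to 10875 counts per library, and intervals cover the spread between libraries. The code was tested on simulated counts with known changes. The simulated group differences held no differences between R numbers, so they do not measure how many changes these data would show. Alternatives were RLE scaling, DESeq2, no low-count filter, the R number as a block, libraries scaled without mitochondrial and ribosomal RNA genes, and each library left out in turn; leaving out all R2 libraries, and the alternatives of the R number test other than RLE scaling and no filter, were chosen after seeing the data.

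The genes, the gene lists and the tests were chosen with earlier results of these data known. By the naming rule, every one of the 9 genes is described, up to 3 genes with the lowest p come from a list in a comparison, and the 2 genes with the highest r at a mean of 5 CPM or more are given for each of the 9; markers of luteal and vessel cells named for their level fall outside it. Genes of the lists not analysed here are ANGPTL1, GRB7, AIF1, TRAC, GZMK, PF4, PPBP, GP9, TREML1 and GP1BA. Versions used were edgeR 4.0.16 with limma 3.58.1 and DESeq2 1.42.0 in R 4.3.3, and, for the plots, matplotlib 3.10.9 with numpy 2.4.6 in Python 3.11.15.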

Additional observations from a re-analysis of the deposited data

How the results depend on the processing

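Of 38 log2 fold changes of the 9 genes recomputed under 18 alternatives each, 631 values kept the sign and the side of the threshold, 53 changed sign and 0 crossed the threshold. Against CM_EE, only the fold changes of PDGFRA were among the 38. All main adjusted p in edgeR were 0.999855 or higher, so a crossing was unlikely from the start. Some alternatives leave out a library of a group outside the comparison, which enters its value only through the shared fit. The sign changes fell on 20 fold changes. For CM_EE against NC, PDGFA was 0.022 under RLE scaling and 0.023 in DESeq2. Without the R2 libraries it was 0.12, PDGFB -0.044, PDGFRA 0.39, PDGFRB -0.13 and TIE1 -0.24. For CM_EE_IVF against CM_EE_AI, PDGFB was 0.00814 under RLE scaling, 0.00770 in DESeq2 and 0.013 with the R number as a block, and without the R2 libraries it was 0.16 and PDGFC -0.00710.

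With each library left out in turn, the fold changes that changed sign ranged as follows. For CM_EE against NC they were -0.48 to 0.41 for PDGFA, -0.21 to 0.25 for PDGFB, -0.62 to 0.23 for PDGFC, -0.59 to 0.46 for PDGFRA, -0.25 to 0.25 for PDGFRB, -0.30 to 0.35 for ANGPT1, -0.33 to 0.15 for TEK and -0.26 to 0.36 for TIE1. For CM_EE_AI against NC they were -0.90 to 0.072 for PDGFA, -0.57 to 0.063 for TEK and -0.41 to 0.12 for TIE1. For CM_EE_IVF against NC they were -0.31 to 0.59 for PDGFA and -0.41 to 0.049 for TEK. For CM_EE_IVF against CM_EE_AI they were -0.20 to 0.24 for PDGFB, -0.030 to 0.12 for PDGFC, -0.31 to 0.10 for PDGFD, -0.042 to 0.26 for PDGFRB, -0.040 to 0.21 for ANGPT1, -0.21 to 0.39 for TEK and -0.36 to 0.16 for TIE1. Others kept their sign but moved by over 1.5 times: -0.67 to -0.20 for PDGFB, -0.65 to -0.25 for PDGFD and 0.019 to 0.29 for PDGFRB in CM_EE_AI against NC, -0.77 to -0.36 for PDGFD, 0.14 to 0.44 for PDGFRB and -0.48 to -0.10 for TIE1 in CM_EE_IVF against NC, and 0.081 to 1.02 for PDGFA and 0.21 to 0.63 for PDGFRA in CM_EE_IVF against CM_EE_AI. The difference in the log2 ratio of PDGFRB to PDGFRA ranged from -0.58 to 0.70 for CM_EE against NC and from -1.20 to 0.078 for CM_EE_AI against NC. The cause of these changes was not tested.

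DESeq2 called 1 gene over the 4 groups, where edgeR called 0. The test of R numbers called 3374 genes without the CM_EE_AI library R5 and 5141 without the NC library R4, each with fewer samples, and 6012 in DESeq2.

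The labels do not say that libraries with the same R number come from 1 animal. The deviations of such libraries from the group means correlated by 0.08 to 0.66 over 18 pairs, with 15 pairs over 0.1, every one of the 12 libraries correlated best with a library of its own number, and pairs of different numbers had -0.49 to 0.20, which is a hint from the data and not from the design. With the R number as a block, the calls in edgeR stayed at 0 genes in all 6 comparisons and over the 4 groups. At an unadjusted p under 0.05 it gave 817 genes for CM_EE_IVF, 679 for CM_EE_AI and 298 for CM_EE against NC, 976 for CM_EE_IVF and 865 for CM_EE_AI against CM_EE, 163 for CM_EE_IVF against CM_EE_AI and 527 over the 4 groups, where 5% of the genes is 947. PDGFRA was 1.14 for CM_EE_IVF against CM_EE (0.41 to 1.87, adjusted p = 0.957) and 0.0032 for CM_EE against NC, and TEK was 0.036 for CM_EE_IVF against CM_EE_AI. With the block, intervals against NC left out 0 for PDGFRA in CM_EE_IVF (1.14, 0.41 to 1.88) and CM_EE_AI (0.74, 0.01 to 1.47). They also did for PDGFC in CM_EE_IVF (-0.67, -1.21 to -0.13) and CM_EE_AI (-0.72, -1.25 to -0.18). For PDGFD this held in CM_EE (-0.52, -0.91 to -0.13) and CM_EE_IVF (-0.46, -0.85 to -0.06). The others against NC included 0, and the adjusted p in edgeR was 0.988 or higher throughout. The planned ratio of ANGPT2 to ANGPT1 was not run. Without the block, with 3 libraries a group and a biological coefficient of variation of 0.519, the 95% intervals of the 9 genes against NC were 1.23 to 3.20 wide in full on the log2 scale.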
